A study of Mus musculus with 49 samples.

Results

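Myb and the MYC network genes Myc, Mycn, Max, Mxd1, Mxd3, Mxd4, Mxi1, Mnt and Mga were picked by symbol, and each matched 1 row, giving 10 of the 38253 genes in the deposited expression table. RNA-seq had been run on 49 mouse samples in 10 groups, all labelled C57BL/6J, wild type and 6 to 12 weeks of age. The 30 normal samples were marrow cells sorted as stem cells with long-term (LT-HSC, n = 5) or short-term (ST-HSC, n = 5) repopulating ability, their multipotent offspring (MPP, n = 6), or progenitors restricted to the myeloid lineages (CMP, n = 5), to granulocytes and macrophages (GMP, n = 5) or to megakaryocytes and erythrocytes (MEP, n = 4). The 19 leukaemias were bulk GFP+ cells that had grown in sublethally irradiated recipients of normal cells carrying the fusion MLL-AF9 on a retrovirus with GFP. They are named for the cell of origin, with 3 samples from ST-HSC (STHSC:MA9), 6 from MPP (MPP:MA9), 4 from CMP (CMP:MA9) and 6 from GMP (GMP:MA9). The methods give spleen as their source, while the labels give bone marrow for every sample. The normal cells from LT-HSC to GMP had been gated as c-Kit+ and free of mature lineage markers, and the leukaemias only as GFP+, so virus, recipient, tissue and gate all went with the leukaemias and cannot be told apart from one another.

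MYB is a transcription factor that keeps haematopoietic progenitors immature, and MLL-fusion leukaemias are known to depend on it. MYC and N-MYC (from Mycn) activate genes of growth and ribosome production, and bind DNA only when paired with MAX. MAX also pairs with the MXD proteins (from Mxd1, Mxi1, Mxd3 and Mxd4), MNT and MGA, which occupy the same E-box sequence, CACGTG, and mostly repress. MXD1 and MXI1 are best known from differentiating cells, where they replace MYC on MAX.

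The E-box CACGTG reads alike on both strands, so a single search covers both. RefSeq promoter windows of 300 bases, from 250 bases before to 50 bases after a gene's start in GRCm38.p6, were matched for 9 of the 10 genes, all but Myc. The hexamer was present in 3 of these 9, Max, Mxd4 and Mnt, against 8.09% of all 27025 gene symbols and 7.15% of all 32851 windows. A gene counts where any of its windows held it. Among 26 known MYC target genes listed for their role, 20 were matched and 7 held it. The windows of Max, Mxd4 and Mnt are printed because these genes encode MYC's partner and rival proteins, and that of Cdk4, a cyclin-dependent kinase gene and MYC target, because it held 4 copies. They run 5′ to 3′ along the gene, with CACGTG in capitals. The hexamer begins 3 bases before the start of Max (chr12:76962199-76962498, minus strand), 219 bases before that of Mxd4 (chr5:34187661-34187960, minus strand), 123 bases before that of Mnt (chr11:74830674-74830973, plus strand) and, in Cdk4 (chr10:127063285-127063584, plus strand), first at 172 bases before the start.
Max: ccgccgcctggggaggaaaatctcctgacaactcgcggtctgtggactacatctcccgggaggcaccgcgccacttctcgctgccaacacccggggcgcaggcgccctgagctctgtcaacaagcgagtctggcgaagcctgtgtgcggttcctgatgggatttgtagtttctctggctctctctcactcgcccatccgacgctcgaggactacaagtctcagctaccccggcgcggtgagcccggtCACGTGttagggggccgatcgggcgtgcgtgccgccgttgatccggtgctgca
Mxd4: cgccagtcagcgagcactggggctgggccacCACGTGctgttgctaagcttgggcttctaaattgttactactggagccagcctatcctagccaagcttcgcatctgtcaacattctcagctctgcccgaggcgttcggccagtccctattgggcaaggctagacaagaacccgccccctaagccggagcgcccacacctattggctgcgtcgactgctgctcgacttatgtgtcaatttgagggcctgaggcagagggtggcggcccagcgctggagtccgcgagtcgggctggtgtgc
Mnt: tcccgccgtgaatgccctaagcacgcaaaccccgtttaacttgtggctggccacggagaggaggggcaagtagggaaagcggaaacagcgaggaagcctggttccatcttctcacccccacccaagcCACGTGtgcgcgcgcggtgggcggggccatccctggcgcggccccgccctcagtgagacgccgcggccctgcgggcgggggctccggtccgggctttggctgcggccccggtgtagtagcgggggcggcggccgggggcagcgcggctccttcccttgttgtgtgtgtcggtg
Cdk4: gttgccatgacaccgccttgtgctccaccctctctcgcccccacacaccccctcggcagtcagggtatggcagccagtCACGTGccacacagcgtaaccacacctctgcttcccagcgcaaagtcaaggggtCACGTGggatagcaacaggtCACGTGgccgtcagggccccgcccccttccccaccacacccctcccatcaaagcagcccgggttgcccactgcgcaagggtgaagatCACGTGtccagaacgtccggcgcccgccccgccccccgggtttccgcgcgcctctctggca
A match describes the letters only, and binding was not measured.

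Levels are FPKM, fragment counts scaled for transcript length and for library size. Relative depth, read from the steps between low values, ran from 0.492 to 1.55 of the median sample, and the true depths are unknown. Changes are differences of mean log2(FPKM + 1) from limma, which understate the change of low genes. A gene is said to rise or fall where the Benjamini-Hochberg adjusted p of limma was below 0.05 over all genes tested, and is counted as called where the change was also above 2-fold. No 2 samples were identical. The methods call the samples independent biological replicates, but the labels do not name the experiments or batches in which they were taken, so batch and group cannot be told apart. Replicates 4 and 5 of LT-HSC and of ST-HSC stood apart in their marker genes, and summed FPKM of 8 granulocyte markers was 74479, 30097, 42420 and 8744 in them, against 21.9 to 1210 in replicates 1 to 3 of both groups. Erythroid markers were high in 3 of these 4 as well, at 27607 to 51028 against 72.7 to 4315 in replicates 1 to 3, and 4354 in ST-HSC replicate 5. Results that use LT-HSC or ST-HSC are therefore given with and without them where the call differs.

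Between each leukaemia and its normal cell of origin, Myc fell in all 4 comparisons and Mxi1 rose in all 4, while Myb fell and Mxd1 rose in 3. Members past the test were 5, 7, 7 and 7 of 10 in the leukaemias of ST-HSC, MPP, CMP and GMP origin, against 48.4%, 62.5%, 59.8% and 58.4% of all 12600 genes tested. Members called were 3 of 10 in STHSC:MA9, 4 in MPP:MA9, 4 in CMP:MA9 and 2 in GMP:MA9, against 24.2%, 27.1%, 27.8% and 22.4% of all genes. The share of members called was thus not far from that of all genes, and in GMP:MA9 it was below it. In the mean of the 4 changes 9 members passed the test, against 77.3%, and 3 were called (Myc, Mycn, Mxi1), against 23.4%. Mycn is in these counts for every origin but GMP and in the mean, although it passed the filter on low values only through the normal cells, where it is high, and so had to differ. Without it 2, 3, 3 and 2 members were called in the 4 comparisons and 2 in the mean. In bulk samples, fewer cells of a type and less RNA per cell cannot be told apart.

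**Figure D1:**
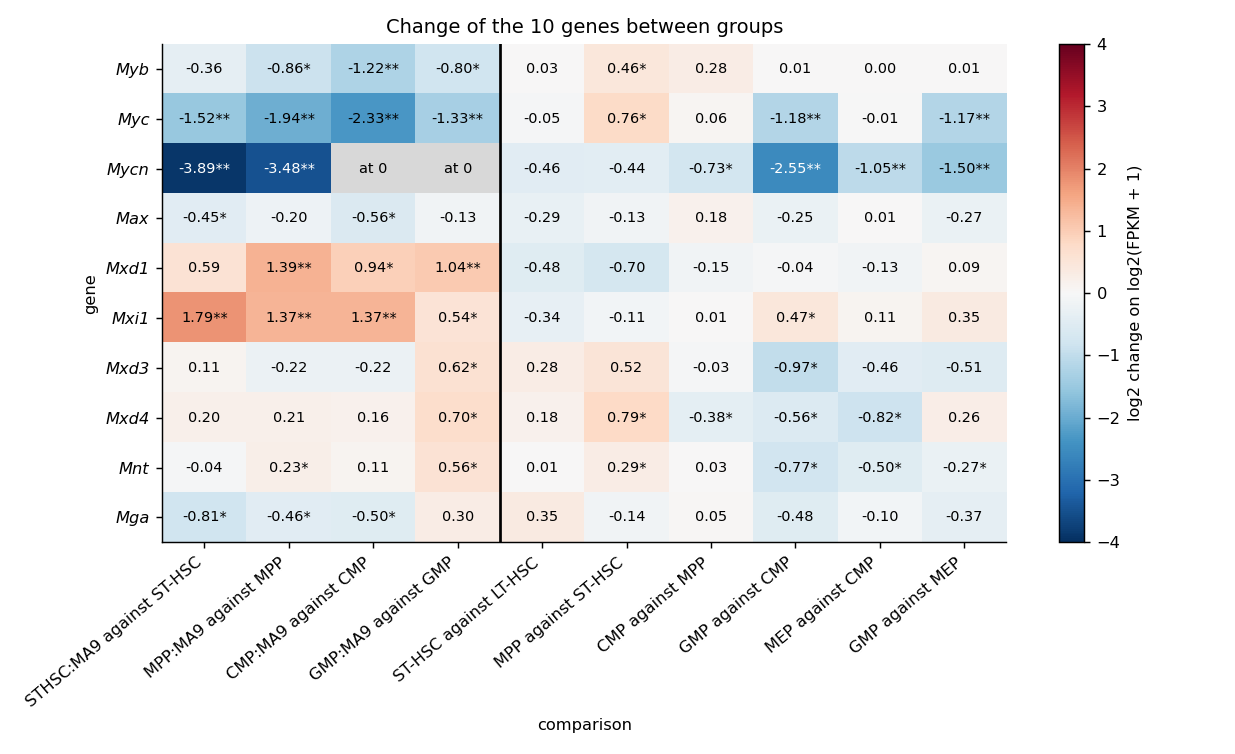
Log2 change on log2(FPKM + 1) of the 10 genes (rows) in 4 leukaemia comparisons (left of the line) and 6 normal ones (right). Red is higher and blue lower in the group named first, * marks adjusted p below 0.05, ** also a change over 2-fold, and grey a comparison with a group in which Mycn was listed at 0 in every sample. The marks on Mycn in STHSC:MA9 and MPP:MA9 follow from how it passed the filter on low values and are no result. Myc is blue and Mxi1 red in all 4 leukaemia columns, and MEP against CMP passes the test for Mycn, Mxd4 and Mnt alone.

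Myb (ENSMUSG00000019982, chr10:20844736-20880790, minus strand, mm9) was among the more abundant of the 10 genes in all groups. ST-HSC were at 128, 125, 151, 112 and 152 FPKM, and STHSC:MA9 at 37.2, 183 and 158. MPP spanned 159 to 207 FPKM (median 182) and MPP:MA9 81.2 to 116 (median 104). CMP were at 223, 219, 224, 213 and 235, and CMP:MA9 at 69.7, 81.4, 131 and 109. All 6 MPP:MA9 and all 4 CMP:MA9 samples lay below every sample of their normal cell, whereas STHSC:MA9 spread on both sides of ST-HSC. GMP were at 222, 202, 247, 230 and 225, and GMP:MA9 spanned 87.2 to 176 (median 133), also below every GMP. Myb fell by 0.86 on the log2 scale in MPP:MA9 (SE 0.21, limma adjusted p = 0.000759), by 1.22 in CMP:MA9 (SE 0.25, adjusted p = 7.38e-05) and by 0.80 in GMP:MA9 (SE 0.22, adjusted p = 0.00258). The change in STHSC:MA9 was -0.36 (SE 0.27, adjusted p = 0.275), and it rested on replicate 1: without that library it was 0.36, and without replicate 2 it was -0.78 with adjusted p = 0.0226. The test of whether the change differed among the 4 origins did not pass for Myb (limma F test, adjusted p = 0.247).

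Among the normal groups the mean of Myb was lowest in the stem cells. LT-HSC were at 201, 131, 178, 75.8 and 106 FPKM, and the 2 lowest of these were the 2 samples high in granulocyte genes. The values of 201 and 178 lay within the MPP range of 159 to 207. MEP were at 210, 226, 215 and 243. The order of mean levels was GMP (225 ± 16.3 FPKM, SD, n = 5), MEP (224 ± 14.6, n = 4), CMP (223 ± 8.22, n = 5), MPP (183 ± 17.1, n = 6), LT-HSC (138 ± 51.3, n = 5), ST-HSC (134 ± 17.2, n = 5), then GMP:MA9 (132 ± 32, n = 6), STHSC:MA9 (126 ± 78.2, n = 3), MPP:MA9 (101 ± 11.8, n = 6) and CMP:MA9 (97.8 ± 27.5, n = 4). Of the 9 pairs of neighbours in that order only CMP and MPP had ranges that did not overlap.

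**Figure D2:**
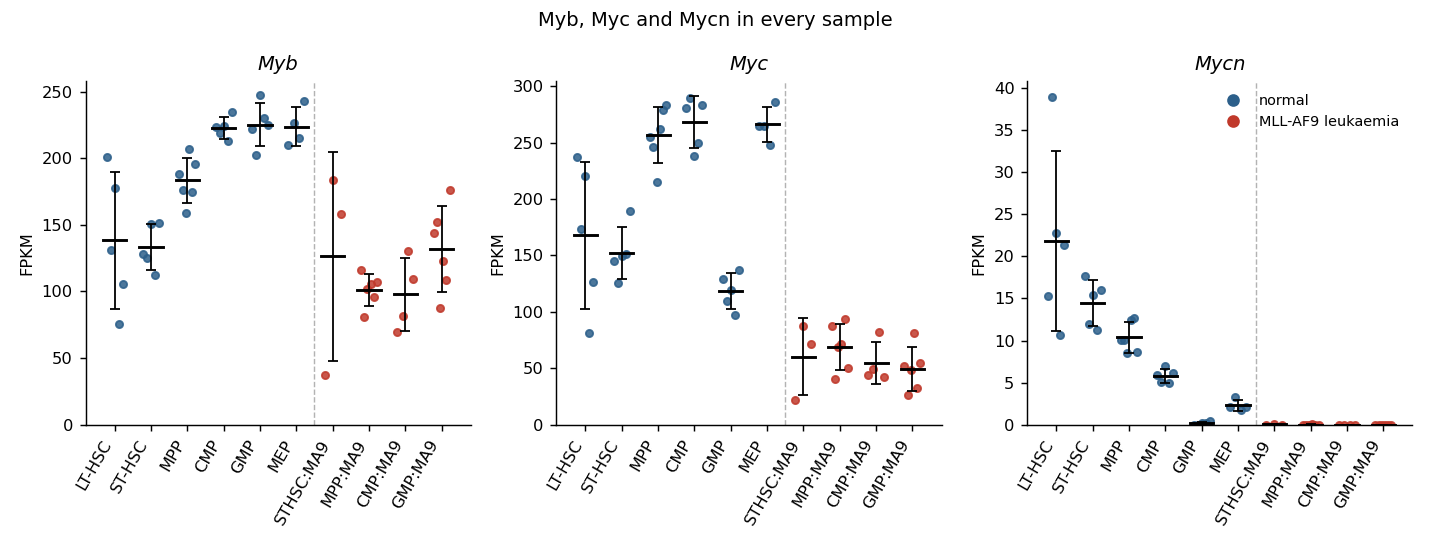
FPKM of Myb, Myc and Mycn in each of the 49 samples by group, normal in blue and leukaemia in red. Points are samples and bars the mean ± SD. Every Mycn value in the leukaemias is at or below 0.1 FPKM, and Myc is at most 93.5 FPKM in the leukaemias.

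Myc (ENSMUSG00000022346, chr15:61816946-61821929, plus strand, mm9) encodes the network's main activator. It was at 145, 125, 150, 152 and 189 FPKM in ST-HSC, and at 22, 87.5 and 71.8 in STHSC:MA9. MPP spanned 215 to 284 (median 258), and MPP:MA9 40.6 to 93.5 (median 69.8). The leukaemia values were below every normal value of the same origin, as they were for the other two origins. CMP were at 281, 290, 238, 250 and 283, and CMP:MA9 at 44.1, 48.98, 82.1 and 42.7. GMP were at 129, 109, 120, 96.8 and 137, and GMP:MA9 spanned 26.0 to 81.7 (median 50.1). Myc fell by 1.52 on the log2 scale in STHSC:MA9 (SE 0.30, adjusted p = 6.92e-05), by 1.94 in MPP:MA9 (SE 0.24, adjusted p = 8.54e-09), by 2.33 in CMP:MA9 (SE 0.28, adjusted p = 6.42e-09) and by 1.33 in GMP:MA9 (SE 0.25, adjusted p = 2.71e-05). The fall passed the test in each of the 8, 12, 9 and 11 refits that left out 1 sample, although without STHSC:MA9 replicate 1 it was -0.92 there, short of 2-fold. The size of the fall was not shown to differ among origins (F test, adjusted p = 0.11).

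Among normal cells Myc was high in CMP (268 ± 22.9 FPKM), MEP (266 ± 15.6, at 265, 265, 248 and 286) and MPP (257 ± 24.7), whose ranges overlapped. It was lower in LT-HSC (168 ± 65.1, at 237, 174, 221, 80.9 and 126) and ST-HSC (152 ± 23.2), and lowest in GMP (118 ± 15.8). The leukaemias followed with overlapping ranges, MPP:MA9 at 68.6 ± 20.5, STHSC:MA9 at 60.5 ± 34.2, CMP:MA9 at 54.5 ± 18.6 and GMP:MA9 at 49.2 ± 19.4. The step from GMP to MPP:MA9 was the only one of the 9 between neighbours without overlap.

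Mycn (ENSMUSG00000037169, chr12:12942902-12948720, minus strand, mm9) was a gene of the normal stem and progenitor cells in this table. LT-HSC were at 15.3, 38.9, 22.8, 10.7 and 21.3 FPKM, ST-HSC at 17.7, 12.0, 15.4, 11.2 and 16.0, and MPP spanned 8.49 to 12.7 (median 10.1). CMP were at 5.92, 5.10, 6.94, 4.98 and 6.16, MEP at 2.05, 3.26, 1.80 and 2.14, and GMP at 0, 0, 0.18, 0.22 and 0.44. The level thus stepped down from MPP to CMP, from CMP to MEP and from MEP to GMP with no overlap of ranges, while LT-HSC, ST-HSC and MPP overlapped in that order. In the leukaemias Mycn was listed at 0 in 16 of 19 samples, and the other values were 0.1 in STHSC:MA9 and 0.05 and 0.03 in MPP:MA9. The levels of the leukaemias were thus below those of ST-HSC, MPP and CMP without overlap, and overlapped those of GMP, which were near 0 already. The fitted size of these differences depends on the constant added before the logarithm, being -3.89 in STHSC:MA9 with 1 and -6.83 with 0.1, and is no measure of the fold. Because of how it passed the filter, no p is given for Mycn against the leukaemias, and it was not tested between leukaemias.

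The 3 genes whose levels followed Myc most closely over the 49 samples were Kat2a (Pearson r = 0.962), Rcc2 (0.951) and Bend3 (0.942). Within the 30 normal samples these were 0.933, 0.895 and 0.845, and within the 19 leukaemias 0.762, 0.758 and 0.691. Kat2a encodes a histone acetyltransferase that MYC recruits, and Rcc2 a mitotic chromatin protein. For Mycn, Csgalnact1 (0.979) and Prkg1 (0.974) were among the nearest genes. Among normal samples alone r was 0.950 and 0.942 for these, and among the leukaemias, where Mycn was at or near 0, 0.079 and 0.483. Myb was followed by Abce1 (0.848), Uchl3 (0.848) and Rqcd1 (0.846), with 0.831, 0.742 and 0.845 in the normal samples and 0.644, 0.734 and 0.620 in the leukaemias. These correlations are descriptions: the samples of a group share their cell type, and most of the spread lies between groups.

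Max (ENSMUSG00000059436, chr12:78038256-78063235, minus strand, mm9), the obligate partner, varied little. Normal samples lay between 63.0 and 122 FPKM and leukaemias between 52.9 and 107, and no pair of neighbours in the order of the 10 groups was free of overlap. Max fell by 0.45 on the log2 scale in STHSC:MA9 (SE 0.15, adjusted p = 0.0116) and by 0.56 in CMP:MA9 (SE 0.14, adjusted p = 0.000526), where all leukaemia samples were below all normal samples. The changes in MPP:MA9 (-0.20, adjusted p = 0.135) and GMP:MA9 (-0.13, adjusted p = 0.374) did not pass. MPP:MA9 replicate 2, at 107 FPKM against 55.3 to 64.4 in the other 5, decided the former: without it the change was -0.34 with adjusted p = 0.0034. Without STHSC:MA9 replicate 2 the fall there was -0.39 with adjusted p = 0.0599.

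Myc was above Max on the log2(FPKM + 1) scale in normal progenitors, by 1.73 ± 0.26 in MPP (SD, n = 6), 1.62 ± 0.18 in CMP and 1.6 ± 0.07 in MEP, and by 0.69 ± 0.17 in GMP. In the leukaemias the mean difference was -0.01 ± 0.76 in MPP:MA9, -0.14 ± 0.34 in CMP:MA9, -0.23 ± 1.05 in STHSC:MA9 and -0.51 ± 0.72 in GMP:MA9. ST-HSC were at 0.85 ± 0.25, and LT-HSC at 0.60 ± 0.81 with a range of -0.51 to 1.46 that overlapped the leukaemias. Transcripts of the activator, which outnumbered those of its partner in progenitors, were thus by group mean at about the partner's level in leukaemia. Single leukaemias ran from -1.76 to 0.65.

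Mxd1 (ENSMUSG00000001156, chr6:86597038-86619153, minus strand, mm9) encodes the MAX partner MAD1. It was at 4.70, 3.84, 3.55, 39.96 and 11.7 FPKM in ST-HSC and at 17.8, 8.25 and 14.2 in STHSC:MA9. MPP spanned 3.79 to 5.34 (median 4.65), and MPP:MA9 9 to 31.3 (median 12.0). CMP were at 4.12, 4.19, 3.05, 5.11 and 4.27, and CMP:MA9 at 6.86, 8.21, 13.1 and 8.08. In the MPP and CMP pairs every leukaemia was above every normal sample, whereas the 2 ST-HSC samples high in granulocyte genes lay within and above the STHSC:MA9 range. GMP were at 4.68, 3.14, 3.56, 4.86 and 3.72, and GMP:MA9 spanned 5.26 to 16.1 (median 9.46), all above GMP. Mxd1 rose by 1.39 on the log2 scale in MPP:MA9 (SE 0.35, adjusted p = 0.000722), by 0.94 in CMP:MA9 (SE 0.40, adjusted p = 0.0418) and by 1.04 in GMP:MA9 (SE 0.36, adjusted p = 0.0136). The change of 0.59 in STHSC:MA9 did not pass (SE 0.44, adjusted p = 0.273), but without replicates 4 and 5 of LT-HSC and ST-HSC it was 1.47 with adjusted p = 0.000471, and without ST-HSC replicate 4 alone 1.13 with adjusted p = 0.00647. The rise in CMP:MA9 passed in 2 of the 9 refits that left out 1 sample, with adjusted p up to 0.13 (without CMP:MA9 replicate 3), and had adjusted p = 0.0555 with the replicate number as a block. The change was not shown to differ among origins by the F test.

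Among normal samples Mxd1 was between 2.19 and 5.85 FPKM in 26 of 30, with MEP at 3.90, 3.41, 2.19 and 5.85. LT-HSC were at 3.52, 3.95, 5.26, 83.5 and 28.6, so that the 4 exceptions were replicates 4 and 5 of LT-HSC and of ST-HSC. The genes nearest to Mxd1 over the 49 samples were Mmp25, a membrane protease of neutrophils (r = 0.935), Slc27a4 (0.910) and Il28ra (0.904), with 0.775, 0.837 and 0.896 within the leukaemias. Among the leukaemias the sample highest in Mxd1, MPP:MA9 replicate 2 (31.3 FPKM), was also highest in summed granulocyte markers (51973 FPKM) and lowest in a sum of 12 proliferation genes (294 FPKM, against 371 to 859 in the others). Below that sample the orders of Mxd1 and of granulocyte markers differed. STHSC:MA9 replicate 3 was at 14.2 FPKM of Mxd1 with 46204 of granulocyte markers, and MPP:MA9 replicate 6 at 16.9 with 6791. Normal GMP summed to 1709 to 11369 FPKM of granulocyte markers with Mxd1 no higher than 4.86 FPKM, and in GMP:MA9 1 of the 8 markers rose. The part of granulocytic cells in the Mxd1 values was not tested.

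**Figure D3:**
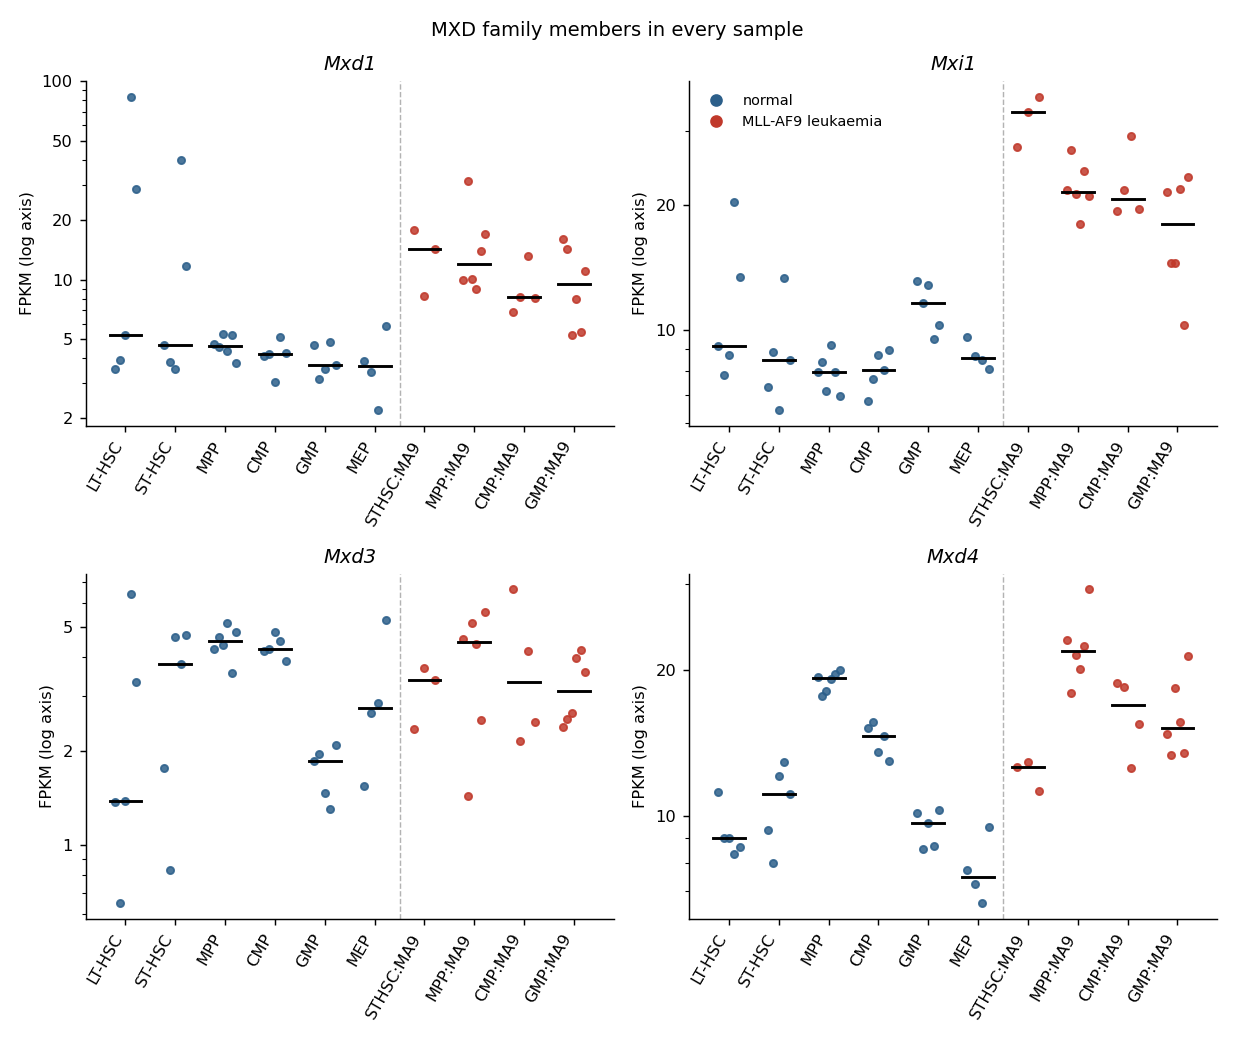
FPKM on a log axis of Mxd1, Mxi1, Mxd3 and Mxd4 in each sample by group, normal in blue and leukaemia in red, with black bars at the group medians. The 4 raised normal points of Mxd1 are replicates 4 and 5 of LT-HSC and ST-HSC, and all Mxi1 values of the leukaemias other than GMP:MA9 lie above those of their normal cell.

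**Figure D4:**
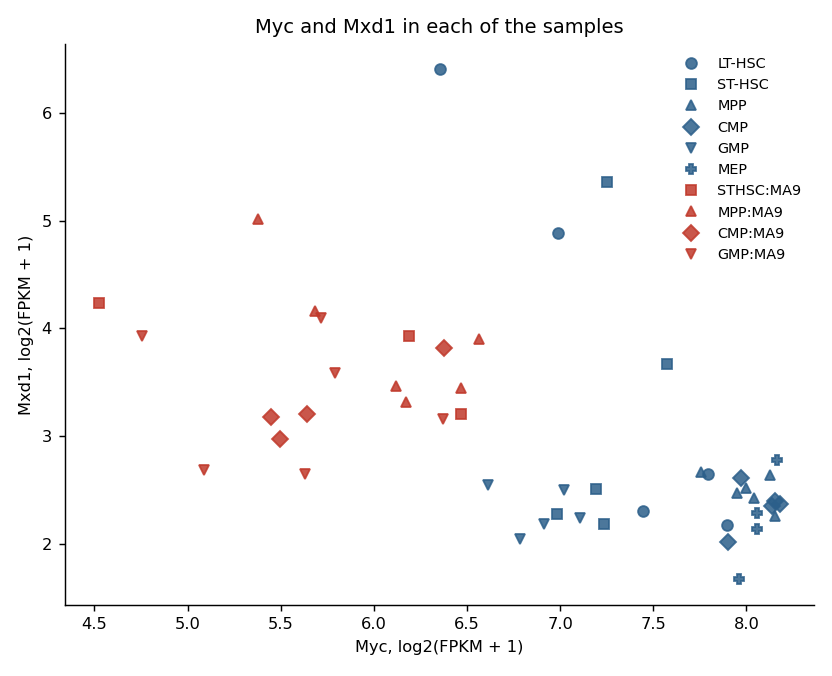
Mxd1 (vertical axis) against Myc (horizontal axis), both as log2(FPKM + 1), in each of the 49 samples, normal in blue and leukaemia in red, with a marker shape for each cell type or origin. Leukaemias lie to the left of and above most normal samples, apart from the 4 stem cell samples high in granulocyte markers.

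The distance between Myc and Mxd1 within a sample was wide in normal progenitors and narrow in leukaemia. On the log2(FPKM + 1) scale it was 5.84 ± 0.37 in MEP, 5.72 ± 0.21 in CMP, 5.51 ± 0.26 in MPP and 4.58 ± 0.32 in GMP. It was 1.94 ± 1.51 in STHSC:MA9, 2.18 ± 1.03 in MPP:MA9, 2.45 ± 0.13 in CMP:MA9 and 2.21 ± 0.88 in GMP:MA9, and the highest leukaemia, at 3.26, was below the lowest of these progenitor samples, at 4.06. ST-HSC ranged from 1.90 to 5.05 and LT-HSC from -0.05 to 5.72.

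Mxi1 (ENSMUSG00000025025, chr19:53384996-53450300, plus strand, mm9), which encodes the related repressor MXI1, had the largest rise of the 10 in the mean of the 4 changes (1.26, SE 0.09, adjusted p = 8.49e-16). ST-HSC were at 7.30, 8.87, 6.42, 13.3 and 8.49 FPKM, and STHSC:MA9 at 27.5, 33.4 and 36.3. MPP spanned 6.94 to 9.20 (median 7.94) and MPP:MA9 17.9 to 27.1 (median 21.4). The 3 leukaemia groups of ST-HSC, MPP and CMP origin were each wholly above their normal cell. CMP were at 6.76, 7.62, 8.72, 8.01 and 8.95, and CMP:MA9 at 19.4, 21.7, 29.2 and 19.5. GMP were at 13.1, 11.6, 12.8, 9.52 and 10.3, and GMP:MA9 spanned 10.3 to 23.3 (median 17.9), overlapping GMP. Mxi1 rose by 1.79 in STHSC:MA9 (SE 0.19, adjusted p = 1.09e-09), 1.37 in MPP:MA9 (SE 0.15, adjusted p = 9.85e-10), 1.37 in CMP:MA9 (SE 0.18, adjusted p = 3.72e-08) and 0.54 in GMP:MA9 (SE 0.16, adjusted p = 0.00441). Here the change did differ among the 4 origins (F test, adjusted p = 0.000755). LT-HSC were at 9.15, 7.80, 8.73, 20.3 and 13.4, and MEP spanned 8.07 to 9.61. Mxi1 overlaps Gm10197 on the other strand, and the library kit does not mark strand, so reads of the pair cannot be told apart. Of its 31-base windows 3.35% also occur in other genes.

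Mxd3 (ENSMUSG00000021485, chr13:55426529-55431119, minus strand, mm9), the family member known from cycling cells, was a scarce MXD gene, at 0.65 to 6.61 FPKM over all samples. GMP were at 1.86, 1.96, 1.47, 1.30 and 2.09 and GMP:MA9 spanned 2.39 to 4.23 (median 3.12), with no overlap. The rise of 0.62 there had adjusted p = 0.0309 (SE 0.25), but it passed in 6 of 11 refits without 1 sample, with adjusted p up to 0.072 (without GMP replicate 4). No other leukaemia comparison passed for Mxd3. LT-HSC were at 1.37, 0.65, 1.38, 6.38 and 3.33, ST-HSC at 1.76, 0.83, 4.66, 3.82 and 4.73, CMP at 4.19, 4.24, 4.83, 4.52 and 3.90, and MEP at 1.55, 2.66, 2.85 and 5.29. MPP spanned 3.55 to 5.15 (median 4.51) and MPP:MA9 1.43 to 5.61 (median 4.49), while STHSC:MA9 were at 2.35, 3.70 and 3.38 and CMP:MA9 at 6.61, 2.15, 4.18 and 2.48. The gene overlaps Prelid1 on the other strand and shares 5.76% of its 31-base windows, so its values are the least certain of the 10.

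Mxd4 (ENSMUSG00000037235, chr5:34516536-34530369, minus strand, mm9) was highest in MPP and in the leukaemias that came from them. MPP spanned 17.6 to 20.01 FPKM (median 19.3) and MPP:MA9 17.9 to 29.3 (median 21.9). CMP were at 15.2, 15.6, 13.5, 14.6 and 12.9 and CMP:MA9 at 18.8, 18.4, 12.6 and 15.4. Neither pair passed the test, although after median-ratio scaling both did (0.29, adjusted p = 0.0237, and 0.32, adjusted p = 0.0343). ST-HSC were at 9.35, 8.01, 12.1, 12.9 and 11.1, and STHSC:MA9 at 12.6, 12.9 and 11.3, which did not pass either. GMP were at 10.1, 8.56, 9.65, 8.66 and 10.3, and GMP:MA9 spanned 13.4 to 21.4 (median 15.2), all above GMP, a rise of 0.70 (SE 0.12, adjusted p = 7.43e-06). LT-HSC were at 11.2, 9.01, 9.01, 8.34 and 8.61, and MEP at 7.73, 7.23, 6.61 and 9.49. The change differed among origins (F test, adjusted p = 0.0315), but not after correction for GC content and length (adjusted p = 0.0962).

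Mnt (ENSMUSG00000000282, chr11:74644422-74659227, plus strand, mm9), a constitutive repressor of MYC targets, ranged from 4.33 to 11.4 FPKM in normal cells and from 6.64 to 13.5 in leukaemias. It rose by 0.56 in GMP:MA9 (SE 0.10, adjusted p = 6.30e-06), where 8 to 10.4 FPKM stood against 4.33 to 6.49 in GMP. The rise of 0.23 in MPP:MA9 (SE 0.09, adjusted p = 0.0268) failed in 3 of 12 refits without 1 sample (MPP replicate 5 or 6, or MPP:MA9 replicate 6; adjusted p up to 0.0629). The changes of -0.04 in STHSC:MA9 and 0.11 in CMP:MA9 did not pass, although corrected for GC content and length the latter was 0.29 with adjusted p = 0.0184. The change differed among origins (F test, adjusted p = 0.00699), but not under that correction (adjusted p = 0.462). Mga (ENSMUSG00000033943, chr2:119722964-119795317, plus strand, mm9) encodes a very large MAX partner of Polycomb-type repressor complexes. It fell by 0.81 in STHSC:MA9 (SE 0.18, adjusted p = 0.000354), by 0.46 in MPP:MA9 (SE 0.14, adjusted p = 0.00548) and by 0.50 in CMP:MA9 (SE 0.17, adjusted p = 0.0105), and was 0.30 in GMP:MA9 (SE 0.15, adjusted p = 0.085), where it passed in 3 of 11 refits without 1 sample (GMP replicate 1, or GMP:MA9 replicate 1 or 5, the last at 0.38 with adjusted p = 0.036). Leukaemia samples were at 28.0 to 38.2 FPKM against 31.3 to 71.5 in the ST-HSC pair, and at 34.4 to 38.0 against 40.9 to 60.9 in the MPP pair. Mga too differed among origins (F test, adjusted p = 0.00128), though corrected for GC content and length its adjusted p was 0.0555. After median-ratio scaling of the samples, which moved the median gene of CMP:MA9 against CMP by 0.15, its fall in CMP:MA9 was -0.33 with adjusted p = 0.0702.

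The test of whether the change from the normal cell differed among origins passed for Mxi1, Mga, Mnt and Mxd4. With Mycn counted it passed for 5 of the 10 members, against 38% of all genes. The result for Mycn restates its normal levels, through which it passed the filter, since all leukaemias were at or near 0. After correction for GC content and length Mxi1 passed (adjusted p = 5.41e-05), while Mga (adjusted p = 0.0555), Mxd4 (adjusted p = 0.0962) and Mnt (adjusted p = 0.462) did not. Mxd4 also failed after median-ratio scaling (adjusted p = 0.104) and with a replicate block (adjusted p = 0.0557). Myb, Myc, Max, Mxd1 and Mxd3 did not pass it. A separate question is whether leukaemias of different origin differ from one another. Over the 4 leukaemia groups 3 of the 9 members tested passed an F test (Mnt, adjusted p = 0.0136, Mxd4, adjusted p = 0.0138, and Mxi1, adjusted p = 0.0425), against 13.3% of all genes. Once corrected for GC content and length none of the 9 passed, with adjusted p = 0.708, 0.271 and 0.0683 for these 3. With a replicate block Mxd4 alone passed, and the block is not an established pairing here. Mxi1 passed in 7 of the 19 refits that left out 1 sample.

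No member was called at over 2-fold by limma in any of the 6 pairs of leukaemias, where 2.88%, 0.363%, 0.536%, 0.115%, 2.23% and 0.206% of all 12128 genes were (STHSC:MA9 against MPP:MA9, CMP:MA9 and GMP:MA9, MPP:MA9 against CMP:MA9 and GMP:MA9, and CMP:MA9 against GMP:MA9). Without the demand of 2-fold the counts were 2 members in STHSC:MA9 against MPP:MA9 (11.2% of all genes), 1 in STHSC:MA9 against GMP:MA9 (1.1%) and 2 in MPP:MA9 against GMP:MA9 (15.9%), and 0 in the other pairs (0.635%, 0.157% and 1.04%). At an unadjusted p under 0.05 the counts over the 6 pairs, in the order above, were 3, 2, 3, 1, 3 and 2 of 9 members. The share of all genes at that unadjusted threshold was not counted, so these counts are a description and show no excess among the members. Mxd4 was lower in STHSC:MA9 than in MPP:MA9 by 0.80 on the log2 scale (-0.80, SE 0.17, adjusted p = 0.00543), with no overlap. It was also lower in GMP:MA9 than in MPP:MA9, the difference being 0.45 (SE 0.14, adjusted p = 0.0311) with overlapping ranges. After correction for GC content and gene length neither passed, the values being -0.40 and 0.08. Mxi1 was higher in STHSC:MA9 than in GMP:MA9 by 0.89 (SE 0.21, adjusted p = 0.0477), with no overlap, but without a filter on low values the adjusted p was 0.0625. It was 0.159 with a replicate block and 0.189 with only the groups compared. Without STHSC:MA9 replicate 2 or 3 it was 0.201 or 0.271. Mnt differed between STHSC:MA9 and MPP:MA9 (-0.57, SE 0.13, adjusted p = 0.0116) and between MPP:MA9 and GMP:MA9 (0.41, SE 0.11, adjusted p = 0.0155), but both signs turned under the same correction, to 0.05 and -0.11. For Myc the 6 differences lay between -0.34 and 0.50 with 95% intervals reaching from -1.15 to 1.17, and a 2-fold difference lay inside the interval of 3 pairs, STHSC:MA9 against MPP:MA9 and MPP:MA9 against CMP:MA9 and GMP:MA9.

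Along normal differentiation, 8 of 10 members passed an F test over the 6 groups, against 78.4% of all genes, with Mxd1 (adjusted p = 0.11) and Mga (adjusted p = 0.179) short of it. Without replicates 4 and 5 of LT-HSC and ST-HSC, Mga passed that F test (adjusted p = 0.00338) and Mxd1 did not (adjusted p = 0.691). The calls at over 2-fold were of Myc and Mycn alone. Myc fell from CMP to GMP by 1.18 on the log2 scale (SE 0.18, adjusted p = 9.46e-06) and was 1.17 lower in GMP than in MEP (-1.17, SE 0.19, adjusted p = 1.13e-05). Mycn was lower in GMP than in CMP by 2.55 (-2.55, SE 0.21, adjusted p = 3.39e-10), in MEP than in CMP (-1.05, SE 0.22, adjusted p = 0.000634) and in GMP than in MEP (-1.50, SE 0.22, adjusted p = 2.68e-06). These made 2 members called in GMP against CMP (11.2% of all 12367 genes), 1 in MEP against CMP (11.8%) and 2 in GMP against MEP (20.5%). The 3 other steps, from LT-HSC to ST-HSC, ST-HSC to MPP and MPP to CMP, had none, where 2.26%, 3.44% and 4.32% of genes were called. By the adjusted p alone 4 members passed from ST-HSC to MPP (18.9% of all genes), 2 from MPP to CMP (14.5%), 6 between CMP and GMP (36.7%), 3 between CMP and MEP (31.6%) and 3 between MEP and GMP (46.7%).

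Smaller steps were seen for both activators and repressors. Mycn fell by 0.73 from MPP to CMP (SE 0.20, adjusted p = 0.014), which had adjusted p = 0.101 with a pseudocount of 0.1. Mxd4 rose by 0.79 from ST-HSC to MPP (SE 0.11, adjusted p = 7.08e-06), fell by 0.38 from MPP to CMP (SE 0.11, adjusted p = 0.0149) and by 0.82 from CMP to MEP (SE 0.12, adjusted p = 3.98e-06). From CMP to GMP it fell by 0.56 (SE 0.11, adjusted p = 0.000227), which was -0.11 and no longer passed after correction for GC content and length. Myc rose by 0.76 from ST-HSC to MPP (SE 0.17, adjusted p = 0.003) and Myb by 0.46 (SE 0.15, adjusted p = 0.0344). Corrected for GC content and length, the rise of Myc had adjusted p = 0.0536, and that of Myb had adjusted p = 0.0685 after median-ratio scaling. Mnt rose at the same step (0.29, adjusted p = 0.0246), fell from CMP to GMP (-0.77, adjusted p = 2.85e-07) and to MEP (-0.50, adjusted p = 0.00031), and differed between GMP and MEP (-0.27, adjusted p = 0.028). With the GC and length correction none of these 4 passed, the values being -0.14, -0.10, -0.21 and 0.11, so the sign turned in the first and the last. Mxd3 fell from CMP to GMP (-0.97, adjusted p = 0.0147), and Mxi1 rose (0.47, adjusted p = 0.0418). The former had adjusted p = 0.0594 after median-ratio scaling, and the latter adjusted p = 0.0723 without a filter on low values.

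Between LT-HSC and ST-HSC no member passed the limma test, where 9.19% of genes did. An unadjusted p under 0.05 was seen for 2 members (Mycn and Max), and the share of all genes at that threshold was not counted. Corrected for GC content and length, Max passed (-0.42, adjusted p = 0.0253) as did Mycn after median-ratio scaling (-0.59, adjusted p = 0.0424). Leaving out 1 sample also brought Mycn past the test (LT-HSC replicate 4, adjusted p = 0.0256), and Max (LT-HSC replicate 3, adjusted p = 0.0156, or ST-HSC replicate 4, adjusted p = 0.0454). Without replicates 4 and 5 of both groups Myc was lower in ST-HSC by 0.58 on the log2 scale (-0.58, adjusted p = 0.00574). At the step from ST-HSC to MPP, the same omission brought Mxd3 past the test (0.83, adjusted p = 0.0194).

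Known targets of MYC fell together with Myc. Of 26 targets listed for their role, 25 were tested in each leukaemia comparison (Tert was too low), and 19 fell in STHSC:MA9, 22 in MPP:MA9, 25 in CMP:MA9 and 24 in GMP:MA9, against 24.6%, 34.8%, 36% and 28.7% of all genes, and none rose. Their median changes were -0.91, -1.26, -1.52 and -1.47, beside -0.04, -0.09, -0.16 and 0.00 for all genes. In the mean of the 4 changes all 25 tested fell (42.9% of all genes did), as they did under each alternative that kept the same genes. The largest falls were those of Ccnd2, a G1 cyclin (-3.60, SE 0.18, adjusted p = 1.15e-19), Tfrc, the transferrin receptor (-1.81, SE 0.17, adjusted p = 5.07e-12), Cdk4, its kinase partner (-1.76, SE 0.09, adjusted p = 2.55e-19), and Cad, of pyrimidine synthesis (-1.62, SE 0.16, adjusted p = 1.96e-11). Cdk4, whose window holds 4 E-boxes, went from 231 to 329 FPKM in ST-HSC to 82.8 to 100 in STHSC:MA9, and from 269 to 348 in GMP to 50.9 to 119 in GMP:MA9. All 12 proliferation genes fell with them in the mean of the 4 changes, from -0.29 (Mki67) to -1.03 (Mcm2), and the part of slower cycling in the fall of the targets was not tested.

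**Figure D5:**
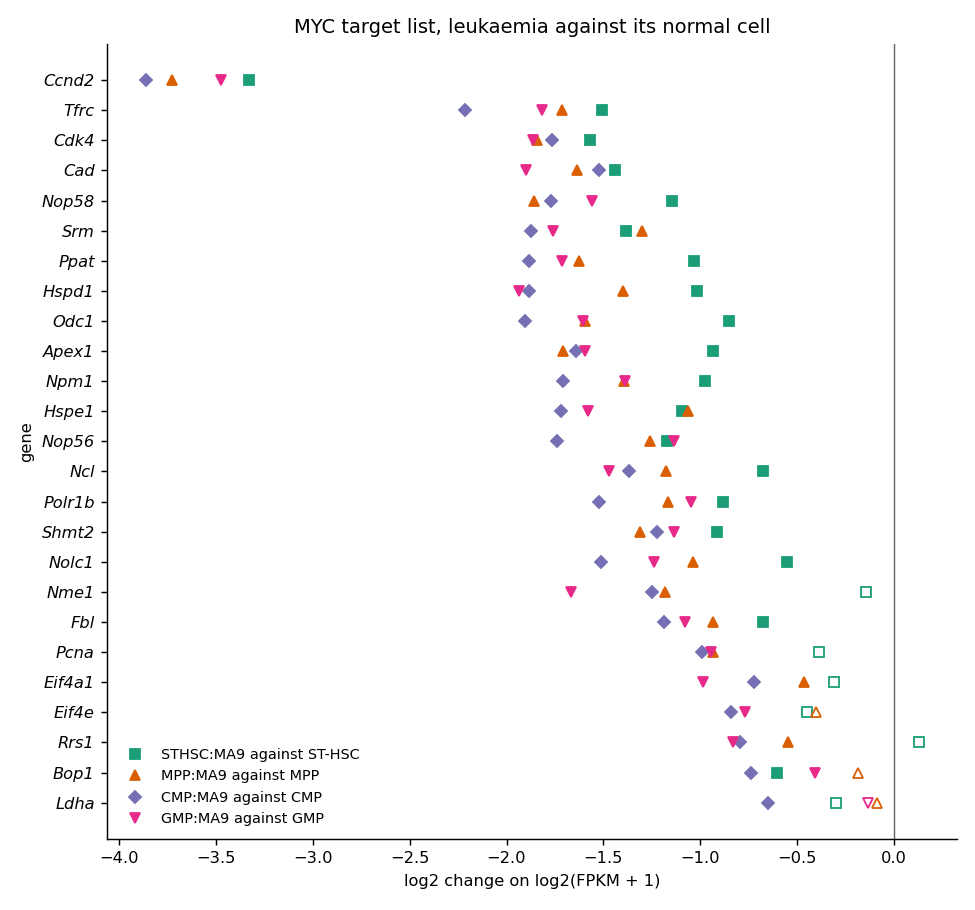
Log2 change on log2(FPKM + 1) of the 25 tested MYC targets (rows, ordered by their mean change) in each leukaemia against its normal cell. Filled markers passed the test and open ones did not. All points but that of Rrs1 in STHSC:MA9 lie below 0, and Ccnd2 is lowest in each comparison.

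The same targets were also followed between normal cells, and the difference from the leukaemia comparisons was not tested. From CMP to GMP, where Myc fell by 1.18, 5 of 25 fell (27.1% of all genes did) and none was called, with a median change of -0.25 beside -0.20 for all genes. From ST-HSC to MPP, where Myc rose, 2 rose (14.5% of all genes did). From MPP to CMP, where Myc did not pass, 9 rose and 0 fell, with a median of 0.42 beside 0.03. Of all genes 14.5% passed there in either direction. From CMP to MEP, where Myc did not pass either, 6 rose and 1 fell, with a median of 0.28 beside -0.14. Of all genes 31.6% passed there in either direction. In GMP against MEP 15 fell (25% of all genes did), with a median of -0.59 beside -0.06. Median-ratio scaling moved the median gene by 0.19 in GMP against CMP and 0.14 in MEP against CMP, and by -0.12 and -0.10 in ST-HSC against LT-HSC and MPP against ST-HSC, so small shifts of a list are within what scaling changes.

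Of the 10 MYB targets, 7 fell and 1 rose in the mean of the 4 changes, with a median of -0.92 beside -0.08 for all genes, of which 42.9% fell and 34.4% rose. Mpo, myeloperoxidase (-5.79, SE 0.29), and Rag2, of antigen receptor rearrangement (-1.65, SE 0.11), were among the falls, and Adora2b, an adenosine receptor, was the gene that rose. Only 9 of the 10 targets reached a mean FPKM of 1 over the normal samples. The filter on low values favours a rise in a target that passed it through the leukaemias, so the 1 rise is a description only. Kit (-5.34, SE 0.16) and Cd34 (-2.29, SE 0.25) encode surface proteins on which the normal cells had been sorted and the leukaemias had not, and the gate cannot be told apart from the leukaemia here. Elane (-0.20, adjusted p = 0.642), a neutrophil protease gene, and Gfi1 (0.52, adjusted p = 0.104) did not pass.

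Among partners of these proteins, 6 of 11 MYC cofactors fell and none rose in the mean of the 4 changes, led by the helicase genes Ruvbl1 (-1.27, SE 0.13) and Ruvbl2 (-1.09, SE 0.08), Kat2a (-1.11, SE 0.06) and Smarcb1 (-0.73, SE 0.07). After median-ratio scaling 1 of them rose, and in GMP:MA9 against GMP alone 2 did. Of 10 genes of the SIN3 and histone deacetylase complexes that MXD proteins recruit, 6 fell, led by Rbbp7 (-1.12, SE 0.09), Hdac2 (-1.06, SE 0.09) and Rbbp4 (-0.49, SE 0.06), and 2 rose, with Sin3b at 0.44 (SE 0.10). Of 6 MYB coactivators and MLL partners 3 rose and 2 fell. Kmt2a, the gene for MLL, rose by 1.33 (SE 0.16), but the virus carries part of it, and reads of the fusion cannot be told apart from those of the mouse gene. Ep300, an acetyltransferase gene, rose by 0.95 (SE 0.07), while Psip1 (-1.51, SE 0.07) and Men1 (-0.86, SE 0.07), whose products tether MLL to chromatin, fell. Of 9 genes that control MYC protein turnover 7 fell, led by the ubiquitin ligase genes Skp2 (-0.95, SE 0.09) and Btrc (-0.77, SE 0.07), and Gsk3b, the kinase that marks MYC for destruction, rose (0.62, SE 0.08). These counts stand beside 42.9% of all genes that fell and 34.4% that rose, and transcript levels do not measure MYC protein.

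Of the MYC and MLX relatives, Mlx rose in the mean of the 4 changes (0.51, SE 0.08). Mlxipl and Mycl1 passed the filter on low values only through the leukaemias, so their direction was fixed by it, and their levels are given as a description with no count. Mlxipl encodes a glucose-sensing partner of MLX and averaged 0.02 to 0.17 FPKM in the normal groups and 2.13 to 3.94 in the leukaemias. Mycl1 encodes L-MYC and averaged 0.17 to 0.90 FPKM in normal groups and 0.58 to 3.33 in leukaemias, so it stayed far below Myc. Bmyc (-0.41, SE 0.17, adjusted p = 0.0308) did not pass after median-ratio scaling, and 55.3% of its 31-base windows are shared with A230005M16Rik, so its value is uncertain. The MYB relative Mybl2, a cell cycle gene, fell (-0.60, SE 0.12), and Mybl1 rose (0.38, SE 0.15).

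Markers of mature and immature cells moved with the leukaemias beside all these results. In the mean of the 4 changes all 8 granulocyte markers and all 6 monocyte markers rose (34.4% of all genes did), and 5 of 6 stem and progenitor markers and all 6 erythroid markers fell (42.9% of all genes did). Only 5 of the 6 monocyte markers reached a mean FPKM of 1 over the normal samples. The other passed the filter on low values through the leukaemias, which favours a rise, and is in each count of 6. Summed granulocyte markers ran from 998 to 51973 FPKM in the leukaemias, and from 13.7 to 884 in MPP and CMP together. Summed monocyte markers ran from 483 to 1712 FPKM in the leukaemias, 1261 to 2126 in GMP and 44.5 to 261 in MPP and CMP. In GMP:MA9 against GMP 1 of 8 granulocyte markers and 5 of 6 monocyte markers rose, 1 monocyte marker fell, and 4 of 5 GMP markers fell. T cell markers summed to at most 3.90 FPKM in the leukaemias, and B cell markers to 12.1 to 64.1, where 1 of 2 tested fell. Of the 5 B cell markers, Pax5 was at 0 in all leukaemias. The part of these cells in the changes was not tested.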

How the data were processed

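The RNA-seq libraries had been made with the NuGen Ovation V2 kit, which does not mark strand. The deposited values are FPKM per gene and sample, which the authors made with RSEM, and the submitters' processing notes name mm9. Of 68 columns, 49 were matched to samples by name and 19 were not used. Gene positions are those of GENCODE M1 on mm9. FPKM are not counts, so log2(FPKM + 1) was tested with limma 3.58.1 (trended empirical Bayes, R 4.3.3). Benjamini-Hochberg adjustment was over all genes with a mean FPKM of at least 1 over all samples of the fit. Separate fits covered the 8 matched groups (12600 genes), the 19 leukaemias (12128 genes) and the 30 normal samples (12367 genes), and the scripts were tested on simulated data. The change was called at adjusted p below 0.05 and above 2-fold. True depths are unknown, so no counting intervals are given.

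The alternatives were a pseudocount of 0.1, no filter, median-ratio scaling, a GC and length correction, the replicate number as a block, only the groups compared, no fold threshold, each sample left out, and replicates 4 and 5 of LT-HSC and ST-HSC left out. No label says that replicate numbers pair samples. Every correlation of same-numbered samples was over 0.1 only between LT-HSC and ST-HSC (0.142 to 0.683), where replicates 4 and 5 shared high granulocyte markers. The correlations were also all above 0 in GMP against CMP (0.048 to 0.29) and CMP:MA9 against CMP (0.048 to 0.107). The block left 0 members called in ST-HSC against LT-HSC. The members and gene lists were chosen with earlier results of these data known. All 10 members are named, with up to 4 genes per list by size of mean change and the 3 genes most correlated with Myb, Myc, Mycn and Mxd1, of which 1 for Mycn is not reported here. Adora2b, Elane, Gfi1, Rrs1, Mki67, Mybl1 and Mybl2 were named after their values were seen.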

Additional observations from a re-analysis of the deposited data

Results flagged for a closer look

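Among 88 pairs of a member and a group with 4 to 10 samples, 5 had a sample whose gap to its nearest neighbour exceeded Dixon's critical value, and chance alone flags about 1 in 20. For Max these were CMP replicate 1, lowest at 77.47 FPKM, GMP replicate 5, highest at 86.04, MPP:MA9 replicate 2, highest at 106.98, and GMP:MA9 replicate 2, highest at 90.89. For Mxd4 it was LT-HSC replicate 1, highest at 11.18 FPKM.

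For 5 members, limma's F test found the leukaemic change to depend on which of the 4 normal cells it started from. Of all 12600 genes 38% passed the same test, and an excess among the members was not tested. The adjusted p was 1.8e-17 for Mycn, 0.0315 for Mxd4, 0.000755 for Mxi1, 0.00699 for Mnt and 0.00128 for Mga. Mycn is among the 5, but no p is given for it. It passed the filter on low values only through the normal cells and was at or near 0 in every leukaemia. Its result thus restates its normal levels and is no finding about the leukaemias. Corrected for GC content and gene length, the tests of Mxd4, Mnt and Mga no longer passed (adjusted p = 0.0962, 0.462 and 0.0555). Mycn was near 0 in normal GMP, Mxd4 and Mnt rose most in GMP:MA9, Mxi1 rose least there, and Mga fell in the other three origins.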

How the results depend on the processing

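Myc fell and Mxi1 rose in all 4 leukaemia comparisons under every alternative run. Without the 2-fold threshold the members past the test were 5, 7, 7 and 7 in the leukaemias of ST-HSC, MPP, CMP and GMP origin and 9 in the mean, 2, 1 and 2 in STHSC:MA9 against MPP:MA9 and GMP:MA9 and MPP:MA9 against GMP:MA9, and 4, 2, 6 and 3 in MPP against ST-HSC, CMP against MPP, GMP against CMP and MEP against CMP. With the GC and length correction, without and with a replicate block, counts were 1 and 1 in GMP:MA9, 2 and 3 for the difference among origins, 0 and 0 over the leukaemia groups, 1 and 1 in GMP against CMP, and 0 and 0 in MEP against CMP. The sign of Mnt turned in STHSC:MA9 against MPP:MA9 (0.046 and 0.043), MPP:MA9 against GMP:MA9 (-0.11 and -0.11), MPP against ST-HSC (-0.14 and -0.11) and GMP against MEP (0.11 and 0.12). Median-ratio scaling gave 1 in GMP against CMP and 0 in MEP against CMP. The cause was not tested.

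Samples of different groups were known to share only a replicate number. The replicate block moved the leukaemia groups from 3 to 1, the mean from 3 to 4, the difference among origins from 5 to 4, the 6 normal groups from 8 to 7, and no other count. Leaving out each sample gave 2 to 5 members in STHSC:MA9 (5 without ST-HSC replicate 4, 2 without STHSC:MA9 replicate 1), 1 to 2 in GMP:MA9 (1 without GMP:MA9 replicate 1, 2 or 6, or GMP replicate 2), 0 to 1 in MEP against CMP (0 without MEP or CMP replicate 3), 4 to 7 for the difference among origins, 2 to 4 over the leukaemia groups and 2 to 3 in GMP against CMP. Relative depth ran from 0.492 to 1.55, and genes near 1 FPKM are measured least well.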
